A study of Mus musculus with 9 samples.

Results

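Across the mouse genome, 5 neighbouring CpGs recur at gaps of 7, 5, 4 and 29 bp, in one direction or its mirror order. Such a run is called a full copy here. Its CpGs are numbered by place: place 1 is set to 0 bp, place 2 lies at 7 bp, place 3 at 12 bp, place 4 at 16 bp and place 5 at 45 bp. Place 6, a further CpG at 69 bp, was covered in 2617 of the full copies (78.8%). CpG-loss variants keep the layout but lack 1 CpG. Gaps of 12, 4, 29 and 24 bp lack place 2, gaps of 7, 9, 29 and 24 bp lack place 3, and gaps of 7, 5, 33 and 24 bp lack place 4. The search found 3322 full copies, 1710 in one direction and 1612 in the other. It found 128 copies lacking place 2, 386 lacking place 3 and 241 lacking place 4. Together they are 4077 of the 446468 runs of 5 neighbouring CpGs that spanned at most 100 bp and could be tested.

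The members were chosen by spacing and by numbers of calls, a call being 1 read of 1 CpG as methylated or unmethylated. A CpG had to have at least 5 calls in at least 5 of the 9 libraries, and a run at least 10 calls in each of the 8 samples. The minimum of 10 calls removed no copy, since the thinnest held 13 calls. The file minimum sets the edge of the set. Just inside it, 94 full copies whose thinnest CpG passed in exactly 5 libraries had a level of 86.5% in fibroblasts and 86.5% after nuclear transfer. Just outside it, 38 full copies whose thinnest CpG passed in 4 libraries had 86.9% and 86.2%. The 59 variants just inside had 78.4% and 79.4%, and the 26 just outside 82.3% and 82.2%.

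The assay, reduced representation bisulfite sequencing, cuts DNA with MspI at CCGG and reads methylation base by base in size-selected fragments. One group, labelled TT, is fibroblasts grown to confluence from tail tips of adult male mice. The other, labelled NTZy14, is embryos made by putting the nucleus of such a fibroblast into a C57/B6 oocyte without its own, activated with strontium chloride in the presence of cytochalasin B and cultured in KSOM medium (NT embryos below). Each stage held 4 samples, 2 labelled with the strain BDF1-CAST and 2 with X1; what X1 and the digits in NTZy14 denote is not given in the sources used here, nor is how many embryos or animals went into a sample. The nuclei of all samples come from fibroblasts of male mice. Nothing in the sources used here says that the samples of a group came from separate animals or cultures, so the spread and the p-values measure differences between these samples, which may be technical. In bulk samples, fewer methylated cells and less methylation per cell cannot be told apart. Libraries held 25239364 to 41466097 calls. The median copy had 92 to 146 calls in a fibroblast sample and 69 to 110 in an NT embryo sample. Places 1 and 2 were read least, with medians of 14 and 13 calls per fibroblast sample, against 26 at places 3 and 4 and 40 at place 5.

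CpG methylation in mammals is copied after replication by maintenance methyltransferases and, in somatic cells, covers most CpGs of transposon-derived repeats, where it goes with silence of their promoters. Mouse LINE-1 elements carry tandemly repeated promoter units at their 5′ end. In early embryos much of the genome loses methylation, while some repeat families keep more of it than other sequence. No repeat annotation was used here, so the copies are described by their spacing and are not assigned to a family.

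To show what the spacing looks like as sequence, the RefSeq promoter table (build GRCm38.p6, another build than the mm9 of the methylation files) was searched on both strands. Of 32851 promoters, 3 hold the full spacing and 0 a variant spacing. They show which bases surround the measured CpGs. Capitals mark the CpGs, and each stretch runs 5′ to 3′ from 12 bases before place 1 to 76 bases after it.
A230004M16Rik, chr11:41710254-41710342, plus strand: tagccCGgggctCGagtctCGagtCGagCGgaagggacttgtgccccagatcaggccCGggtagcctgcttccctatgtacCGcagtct
Gm36816, chr6:67009030-67009118, plus strand: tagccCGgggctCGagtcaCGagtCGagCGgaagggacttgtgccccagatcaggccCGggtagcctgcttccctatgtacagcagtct
Slc24a3, chr2:145242449-145242537, plus strand: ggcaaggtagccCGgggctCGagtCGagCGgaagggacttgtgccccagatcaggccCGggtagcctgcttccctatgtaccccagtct
The A230004M16Rik and Gm36816 stretches are identical at 87 of 89 bases (97.8%), and the Slc24a3 stretch matches the A230004M16Rik stretch at 86.5%. Both shares compare base by base from place 1 without gaps, so bases missing from a stretch lower them. Of the 3, only the A230004M16Rik stretch has a CpG at place 6. The motif CCGG, the cut site of MspI, is present in all 3 stretches and in 52.8% of all promoters in the table. It encloses the CpG 7 bp before place 1 and the CpG at place 5 in A230004M16Rik and Gm36816, so places 1 to 4 lie on a single MspI fragment there, bounded by those CpGs. In Slc24a3 it encloses places 1 and 5 instead. Slc24a3 encodes a potassium-dependent sodium-calcium exchanger. These promoters are examples of the sequence, not measured members, because their coordinates belong to another build.

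The whole A230004M16Rik promoter, 300 bases at chr11:41710094-41710393 on the plus strand, shows that the stretch belongs to a tandem repeat.
A230004M16Rik: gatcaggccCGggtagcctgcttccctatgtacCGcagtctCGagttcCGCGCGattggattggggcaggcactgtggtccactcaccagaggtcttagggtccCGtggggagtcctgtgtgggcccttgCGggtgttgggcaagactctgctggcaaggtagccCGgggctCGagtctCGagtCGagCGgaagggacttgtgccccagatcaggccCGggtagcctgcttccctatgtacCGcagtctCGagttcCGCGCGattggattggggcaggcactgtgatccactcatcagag
Shifted by 208 bases against itself, this promoter is identical at 97.8% of the 92 bases compared. The Gm36816 promoter repeats at 208 bases (96.7% of 92) and the Slc24a3 promoter at 201 bases (98.99% of the bases compared).

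The measured copies showed the same periods on mm9. Of 1995 neighbouring pairs of copies in the same direction whose place 1 lay 190 to 230 bp apart, 1798 were exactly 208 bp apart and 137 exactly 201 bp. In 1671 of the pairs at 208 bp both copies had a listed CpG 7 bp before place 1, and this held for none of the pairs at 201 bp. No neighbouring pair within 1000 bp ran in opposite directions, against 2188 in the same direction. Joined at those distances, the copies formed 2082 groups, here called arrays: 1081 held a single copy, and 1001 held 2 or more, with 2996 copies (73.5%) in them and at most 34 in one array. A CpG 7 bp before place 1 was present in 86.5% of full copies and 42.7% of those lacking place 3. At 176 copies the next covered CpG beyond place 1 lay 5570 to 5610 bp away, a window set around the commonest long gap after it was seen, and at none did such a gap lie on the side of place 6. Copies lacking place 3 made up 87 of the 176 and full copies 76. The X chromosome held 10.6% of the copies, against 2.54% of all runs.

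Methylation of the copies was high in both stages, and the stages overlapped. The level of a copy is its methylated calls as a percent of all calls over its 5 CpGs, and a class level is the mean over copies. For full copies it was 87.7% and 86.3% in the BDF1-CAST fibroblasts and 88.9% and 88.4% in the X1 fibroblasts. In NT embryos it was 84.5% and 83.9% in BDF1-CAST and 89.8% and 90.3% in X1. The fibroblast mean was 87.8% ± 1.15 and the NT mean 87.1% ± 3.39 (SD, n = 4 each), a difference of -0.712 points that is smaller than the SD of each stage. The 2 BDF1-CAST NT samples were the lowest of all 8 and the 2 X1 NT samples the highest. Of full copies, 99.5% were at 80% or more in the fibroblast mean and 98.8% in the NT embryo mean. None fell or rose by 20 points or more. By strain, the BDF1-CAST level changed by -2.80 points and the X1 level by +1.38.

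The variants lay lower than the full copies in every sample. Copies lacking place 2 averaged 86.8% ± 0.786 before and 86.04% ± 3.10 after nuclear transfer (SD, n = 4 each). Copies lacking place 4 averaged 85.7% ± 1.25 and 85.4% ± 3.28. Copies lacking place 3 averaged 81.3% ± 1.19 and 81.3% ± 3.29, the lowest of the 3 variants in all 8 samples. Full minus variants, all variants together, was 4.05, 4.12, 4.03 and 4.50 points in the fibroblast samples and 3.70, 3.45, 3.42 and 4.21 points in the NT samples. All 8 values were above 0, and the means were 4.17 ± 0.219 and 3.70 ± 0.369 points (SD, n = 4 each). The difference changed by -0.478 points between stages, with overlapping values. Its size depends on which copies enter: in fibroblasts it was 1.75 points without the copies lacking place 3 and 1.16 among copies with a CpG 7 bp before place 1, where the change between stages was -0.0207.

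**Figure D1:**
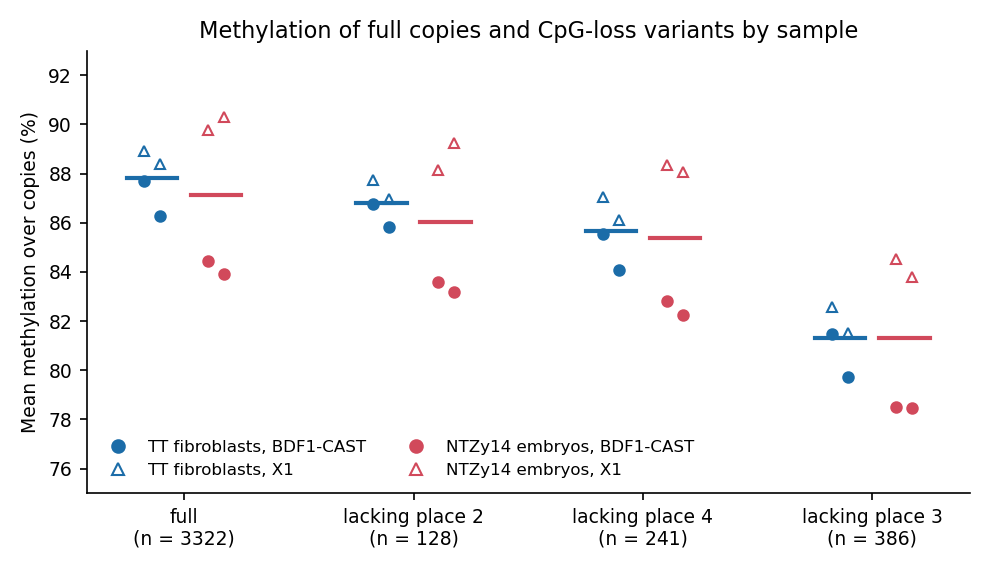
Mean methylation over copies (percent, axis from 75 to 93) for each of the 8 samples in the full copies and the 3 variants; bars are means of 4 samples, filled circles BDF1-CAST and open triangles X1. NT embryo samples of the strains lie on either side of the fibroblast samples in each class, and the copies lacking place 3 are lowest.

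Other sequence at the same starting level lost more. So that the class and the change came from different samples, runs were placed in a class by the fibroblast level of one strain, and the change was read in the other strain. Among runs at 80 to 90%, full copies changed by -2.43 and -2.999 points in the BDF1-CAST NT samples and by +1.18 and +1.64 in the X1 NT samples. The other runs of that class changed by -13.0, -12.1, -3.99 and -6.99 points, each below all 4 values of the full copies. Among runs at 90 to 100%, the mean change was -0.919 ± 2.46 for full copies and -12.8 ± 5.33 for other runs (SD, n = 4 NT samples). Variants at 60 to 80% changed by +1.00 ± 2.38 points, against -11.0 ± 3.08 for other runs. The spacing was singled out in earlier work on these files, so the small change is a description of the copies and not a test. A further recurring spacing, 8-2-16-8 with 1227 runs, changed by +0.347 points on average, and another, 21-12-45-25 with 1499 runs, by -16.5. The authors' deposited table gives a CpG density score per tile, the mean number of CpGs within 50 bp. Its median was 6 for full copies, 5 for variants and 11 for all runs. All runs averaged 14.3% methylation in fibroblasts, and the density of the other runs in the matched classes was not computed. The part of density in the difference was not tested.

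**Figure D2:**
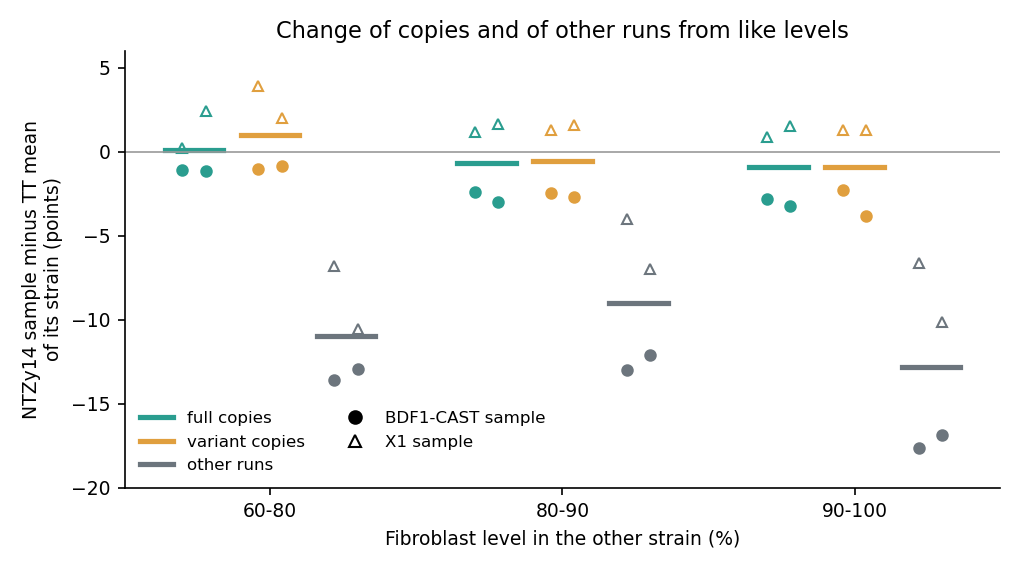
Change of each NT embryo sample from the fibroblast mean of its strain, in points, by the fibroblast level of the runs in the other strain; bars are means of 4 samples. In the 80 to 90% class full copies average -0.652 points and other runs -9.02.

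To ask whether any single copy changed, a quasi-binomial model with stage and strain was fitted to all 446468 runs with Benjamini-Hochberg adjustment. It called 2368 runs between stages at an adjusted p under 0.05 and at least 20 points (0.53% of runs), 2304 of them lower in NT embryos, and 0 of the 4077 copies. Since no copy moved by 20 points, that minimum alone keeps them out; without it the model still called 0, with a smallest adjusted p of 0.120. A limma fit of arcsine square root levels called 0 as well under the same minimum. Without it, limma had 2 copies at an adjusted p under 0.05 (smallest 0.0341), against 1.41% of all runs. The count over all runs rests on the whole set of libraries: it was 0 when any of the 4 fibroblast samples or of the BDF1-CAST NT samples was left out, 1581 without X1 NT sample 3 and 1514 without X1 NT sample 4. At an unadjusted p under 0.05 the model had 126 copies (3.09%, 86 lower and 40 higher), against 16.3% of all runs. Limma had 202 of the 4077 copies there, against 65067 of the 446468 runs. Among other runs at 80% or more in fibroblasts, 43.9% had an unadjusted p under 0.05 and 15.5% fell by at least 20 points. Among copies at 80% or more the shares were 3.07% and 0%. Both sets were picked by the same fibroblast values that enter the change, which by itself favours falls. All 4 NT samples lay below all 4 fibroblast samples in 31 copies (0.760%) and above them in 33 (0.809%); over all runs the shares were 5.23% and 0.384%. Between strains the model called 35 runs (0.00784%) and no copy. Strain differences of the copies ran from -7.82 to +17.2 points, so the minimum of 20 points alone keeps them out. Without it the model still called 0 copies, with a smallest adjusted p of 0.169. At an unadjusted p under 0.05 it had 599 copies (14.7%), against 15.6% of all runs. Of those copies, 597 were higher in X1. The count over all runs was 0 without any 1 of the 8 samples, and limma called 400 runs and 0 copies. At an unadjusted p under 0.05 limma had 797 of the 4077 copies, against 62297 of the 446468 runs. In limma that share was thus larger among the copies than over all runs. Without the minimum of 20 points, limma had 12 copies at an adjusted p under 0.05, against 0.926% of all runs. For a difference in change between strains (the product of stage and strain), the model called 0 runs (0%) and 0 copies, as did limma. At an unadjusted p under 0.05 the model had 294 copies (7.21%) against 6.26% of all runs. Limma had 461 of the 4077 copies there, against 45754 of the 446468 runs.

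The copies with the largest changes, chosen among those with at least 20 calls in every sample and outside chromosome 18, did not pass the threshold. No annotation of mm9 was used, so genes at these positions are not given. The full copy with the largest fall, at chr1:96378171-96378216 (mm9), read 85.4%, 84.9%, 90.6% and 92.9% in fibroblasts and 56.1%, 65.8%, 87.8% and 89.9% in NT embryos. Both low values are BDF1-CAST samples, and the X1 values lie within the fibroblast range. The mean change was -13.5 points (adjusted p = 0.127), or -7.28 to -18.5 when 1 sample was left out. The full copy with the largest rise, at chrX:77617098-77617143, went from 77.8% ± 2.97 to 87.0% ± 6.33 (SD, n = 4 each), +9.18 points, adjusted p = 0.243. A copy lacking place 2 at chr5:94484668-94484737 had the largest fall of its class, from 90.3% ± 5.84 to 80.8% ± 1.47, and all NT samples, 79.8% to 83.0%, lay below all fibroblast samples, 83.5% to 97.1%. Its adjusted p in the quasi-binomial model was 0.256. Another lacking place 2, at chr3:72091214-72091283, rose by 6.74 points without overlap, from 80.7% to 84.8% in fibroblasts to 87.2% to 91.0% in NT embryos (adjusted p = 0.226). Copies lacking place 3 ranged from -9.27 points (chr13:16699431-16699500) to +10.1 (chr7:111693626-111693695), and those lacking place 4 from -6.51 (chr7:110250010-110250079) to +8.85 (chr12:70036172-70036241).

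A single full copy was unmethylated, and it is named because of its value. At chr7:26473063-26473108 (mm9) the level was 0% to 4.35% over the fibroblast samples and 0% to 1.33% over the NT samples, from 65 to 182 calls per sample. It had neither the CpG 7 bp before place 1 nor place 6, and 15 covered CpGs lay in the window from 100 bp before it to 100 bp after it, against a median of 7 for full copies. Every other copy was above 50% in both stages.

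Levels and changes differed between the CpG places of a copy. Over all copies with at least 5 calls at the place in each sample, place 4 was the most methylated in fibroblasts, 89.7% ± 0.521, and place 1 the least, 82.0% ± 2.49 (SD, n = 4 each). In NT embryos place 4 stood at 86.9% ± 3.04, a change of -2.78 points, and place 1 at 83.5% ± 4.18, a change of +1.44. Place 3 changed by -1.52, place 2 by -0.192 and place 5 by -0.104 points. At places 1 to 5 the stages overlapped. Place 6 differed: it read 87.2%, 87.0%, 86.2% and 85.9% in fibroblasts and 83.3%, 81.9%, 85.7% and 84.8% in NT embryos. All 4 NT values were below all 4 fibroblast values there, with means of 86.6% ± 0.644 and 83.9% ± 1.67 (SD, n = 4 each) and a mean change of -2.67 points. At place 4, 65.1% of the CpGs exceeded 90% in fibroblasts and 35.6% in NT embryos, while at place 1 the share went from 7.32% to 14.7%. These shares also depend on depth, since fewer calls widen the spread of single CpGs. Median calls per sample at place 1 were 14 in fibroblasts and 8 in NT embryos, and at place 4 they were 26 and 16. Among full copies with a CpG listed 7 bp before place 1, place 1 read 81.7% in fibroblasts and changed by +1.51 points. Without that CpG it read 84.9% and changed by +0.0976. Place 2 read 84.7% and 76.7% in fibroblasts in the same order, the latter from only 80 of 450 copies. Place 1 averaged 15.0 calls per fibroblast sample with the CpG 7 bp before it and 39.8 without, over 1434 and 319 CpGs. In the Slc24a3 stretch, which lacks that CpG, CCGG encloses place 1. Whether place 1 is the same position of the unit in both sets was not tested, and the means over all copies pool them.

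**Figure D3:**
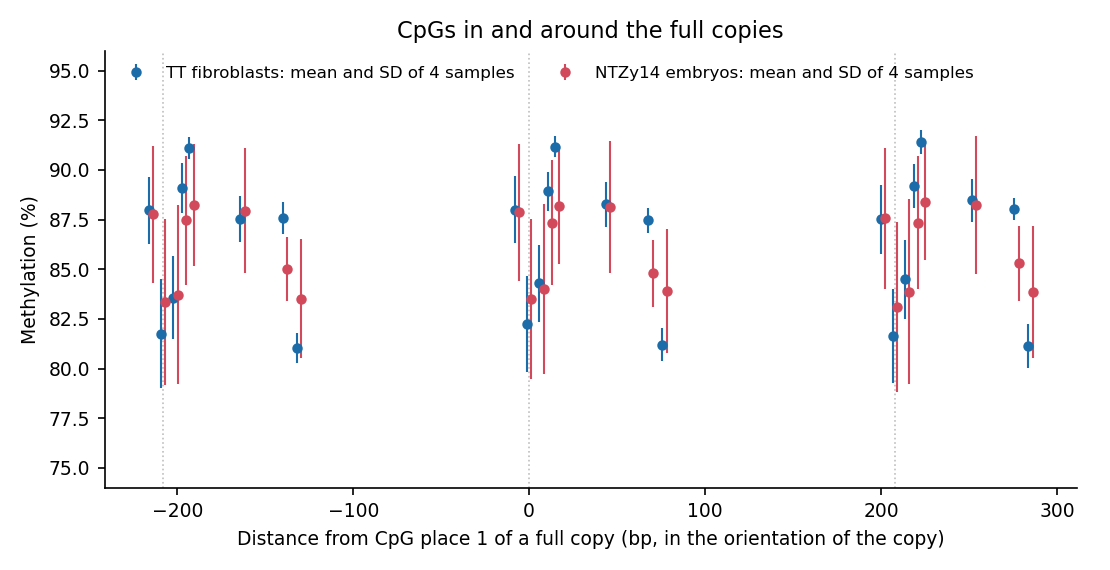
Methylation (percent, axis from 74 to 96) of the CpGs found at fixed distances around place 1 of the full copies, in fibroblasts and NT embryos; points are means and bars SDs of 4 samples, and dotted lines mark place 1 and the positions 208 bp to either side. The levels repeat from unit to unit, with place 4 highest and the CpG 8 bp beyond place 6 near 81.2% in fibroblasts.

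The pattern recurred 208 bp away, at the neighbouring units of the same array. The CpG 208 bp after place 1 of full copies read 81.6% before and 83.1% after nuclear transfer, and the one at 224 bp, place 4 of the next unit, 91.4% and 88.4%. Many of these are themselves members, so they are not independent of the values above. A CpG 8 bp beyond place 6, at 77 bp, was covered in 631 full copies and stood at 81.2% ± 0.831 in fibroblasts and 83.9% ± 3.10 in NT embryos (SD, n = 4 each). CpGs at 84, 86 and 88 bp, which the A230004M16Rik promoter also has, were listed at any depth in 20.6%, 9.001% and 11.7% of full copies and passed the coverage rule in at most 4 copies each.

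Differences between CpGs of the same copies leave out what a sample adds to all places alike. Over 3572 copies, place 5 minus place 4 was -1.31, -2.67, -1.40 and -0.896 points in fibroblasts and +0.514, +1.16, +1.61 and +1.21 in NT embryos. The value was negative in all fibroblast samples and positive in all NT samples, and the mean went from -1.57 ± 0.766 to +1.12 ± 0.455 (SD, n = 4 each). The shift was +2.83 points in BDF1-CAST and +2.56 in X1, although place 5 itself changed by -2.17 points in BDF1-CAST and by +1.96 in X1. Place 4 minus place 3 narrowed from 2.31 ± 0.557 to 0.924 ± 0.258 points over 3373 copies, without overlap. Place 4 minus the CpG 7 bp before place 1 went from 3.51 ± 1.15 to 0.626 ± 0.719 over 3070 copies, again without overlap. By contrast place 5 minus that CpG was 0.522 ± 0.687 in fibroblasts and 0.447 ± 0.265 in NT embryos. In the A230004M16Rik and Gm36816 promoters both of these CpGs belong to CCGG sites. The CpG 8 bp beyond place 6, minus place 6, went from -9.70 ± 0.419 to -4.18 ± 1.19 points over 666 copies. Its fibroblast samples read -9.53, -10.2, -9.21 and -9.90 and its NT samples -4.92, -3.92, -5.27 and -2.63, so the difference was smaller in all NT samples. Place 6 minus place 4 hardly moved, from -2.62 ± 1.16 to -2.63 ± 1.54 over 2989 copies.

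**Figure D4:**
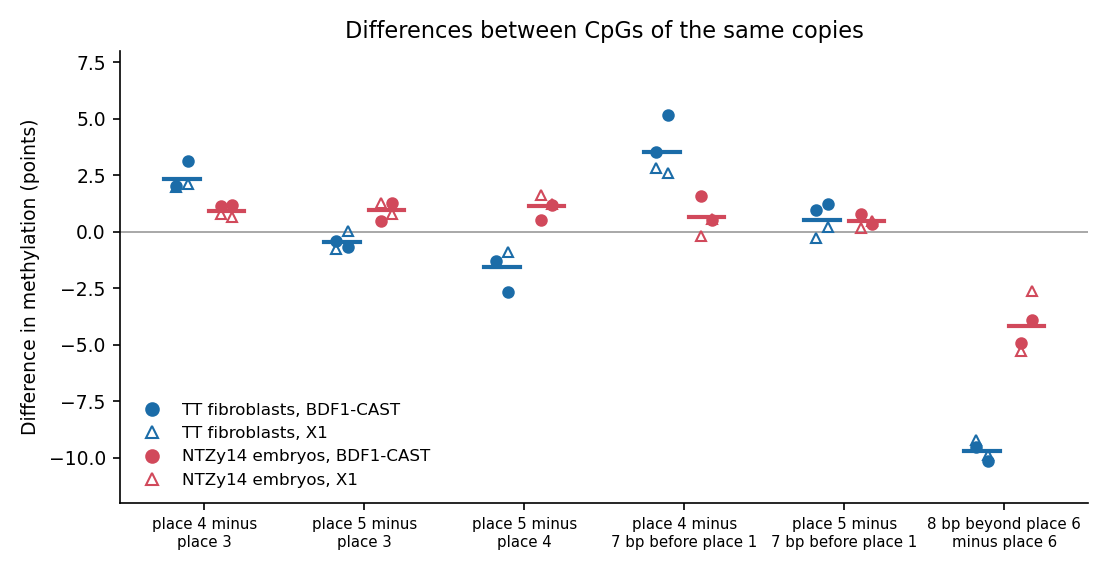
Differences in methylation (points) between pairs of CpGs read in the same copies, for each of the 8 samples; bars are means of 4 samples, filled circles BDF1-CAST and open triangles X1. Place 5 minus place 4 is below 0 in all fibroblast samples and above 0 in all NT samples, and place 5 minus the CpG 7 bp before place 1 overlaps between stages.

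Variants and full copies differ in which places they hold, so they were also compared place by place, using full copies with place 6. For copies lacking place 2, the neighbouring place 1 read 77.9% in fibroblasts against 82.1% in full copies, and 82.7% against 83.4% in NT embryos. That gap was 4.21 ± 1.16 points in fibroblasts and 0.691 ± 0.860 in NT embryos (SD, n = 4 each), without overlap, from 95 variant CpGs. At their other neighbouring place, place 3, the gap was 2.54 ± 0.262 points in fibroblasts and 1.96 ± 1.36 after nuclear transfer, with overlap. At their places 4 and 6 the full copies exceeded them by 0.636 ± 0.359 and 1.33 ± 0.738 points in fibroblasts, and at place 5 the difference was -0.0326, with values of -0.111 to 0.0577 in the 4 samples. For copies lacking place 4, the neighbouring place 3 lay 2.43 ± 1.05 points below full copies in fibroblasts, place 6 lay 2.73 ± 0.304 below, and place 5 lay 0.534 ± 0.193 below. For copies lacking place 3, place 4 read 74.8% in fibroblasts against 91.3%, a gap of 16.6 ± 0.432 points, and 73.7% against 88.4% in NT embryos, a gap of 14.7 ± 1.41. Their place 6 was 5.68 ± 0.298 points lower in fibroblasts, place 5 was 2.30 ± 0.509 lower, and places 1 and 2 were 0.302 ± 1.202 and 0.848 ± 0.392 lower. With a CpG 7 bp before place 1 required in both classes, the gap at place 4 was 2.66 points.

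The large gap at place 4 came from a subset of the copies lacking place 3. Of 330 such copies, 100 (30.3%) had place 4 at 40 to 60% in fibroblasts, against 1 of 3254 full copies (0.0307%), and 89 (27.0%) had it at 90% or more, against 68.96% of full copies. Of the 165 copies lacking place 3 that have a CpG 7 bp before place 1, 163 had at least 5 calls at place 4 in each sample. They read 88.9% ± 1.41 there in fibroblasts and 85.5% ± 4.42 in NT embryos (SD, n = 4 each). Of the 87 whose next covered CpG lies 5570 to 5610 bp away, 66 had those calls, and they read 57.8% ± 1.52 and 57.9% ± 3.52. Each sample of this subset was between 54.6% and 61.4%, so the intermediate level was present in both strains and both stages. Full copies with the same far gap read 87.2% ± 1.72 and 83.9% ± 4.12 at place 4, well above the copies lacking place 3 with that gap. Their place 6, read in 36 of them, was low: 76.3% ± 1.01 in fibroblasts, close to the 77.5% ± 1.12 of the copies lacking place 3 with that gap, against 87.98% ± 0.626 in full copies with a CpG 7 bp before place 1. The remaining 134 copies lacking place 3 read 63.1% ± 1.05 and 65.0% ± 4.00 at place 4. A level near the middle can come from molecules or copies of 2 kinds or from partly methylated ones, which per-CpG counts cannot tell apart.

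**Figure D5:**
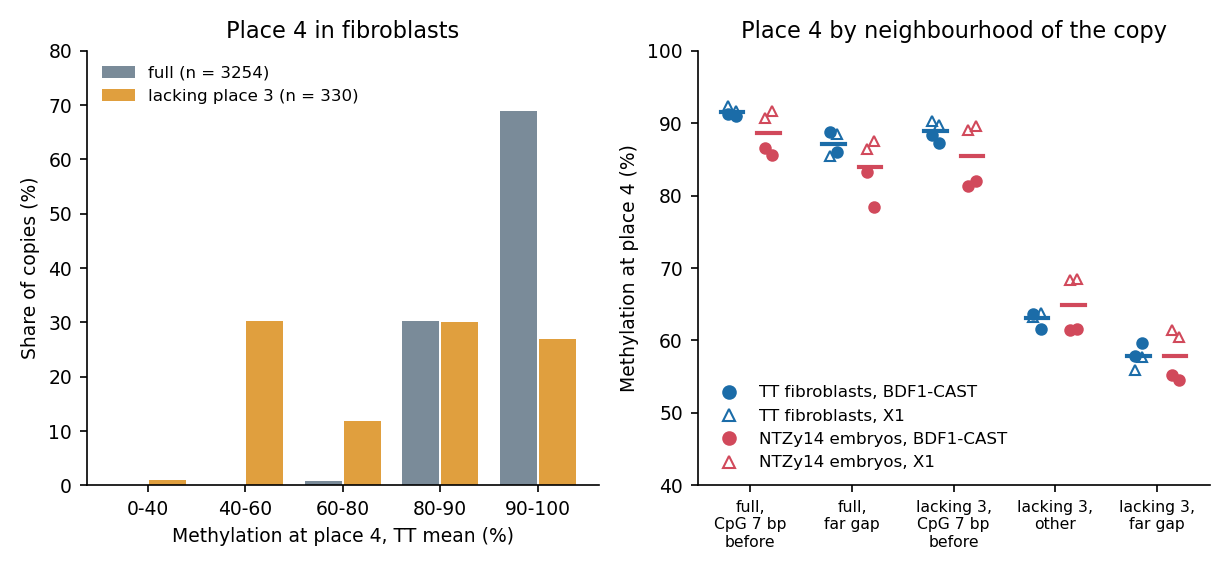
Left, share of full copies and of copies lacking place 3 (percent) by the fibroblast level at place 4. Right, methylation at place 4 (percent, axis from 40 to 100) by sample, split by the neighbourhood of the copy, where far gap means that the next covered CpG beyond place 1 lies 5570 to 5610 bp away; bars are means of 4 samples, and only copies lacking place 3 without the CpG 7 bp before place 1 fall below 75%.

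In fibroblasts, copies in larger arrays had higher levels, with a wider span among variants than among full copies. Full copies standing alone averaged 87.2% ± 1.16 in fibroblasts and those in arrays of 4 or more 88.1% ± 1.18, while variants went from 80.3% ± 1.198 to 86.8% ± 1.21 (SD, n = 4 each). In 300 arrays that hold both kinds, full copies exceeded variants of the same array by 1.93 ± 0.221 points in fibroblasts and 1.74 ± 0.432 in NT embryos. In NT embryos full copies changed by -0.560 points when alone and -0.957 in arrays of 4 or more, both within the spread of the samples.

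At single CpGs, full copies varied among themselves little more than counting error, which is large at that depth. At places 3 to 5 the SD between full copies was 1.01 to 1.15 times the binomial counting error in each of the 8 samples. The median copy had 26 calls at place 4 in a fibroblast sample, so differences of a few points between copies at that CpG were not detectable. Over the 5 CpGs of a copy, the SD between full copies was 2.59 points in the fibroblast mean and 3.07 in the NT mean. Counting error was not computed at that level. Across full copies, the fibroblast level correlated between strains at r = 0.401, and across variants at r = 0.775. The change between stages correlated between strains at r = 0.0369 across full copies. These correlations are across copies of related sequence, which are not independent. The variance over mean of the calls at place 4 was 9.49 to 14.8 in BDF1-CAST samples and 1.56 to 2.43 in X1 samples. The deepest full or variant copy held 2529 to 2743 calls in BDF1-CAST samples and 352 to 754 in X1 samples. Away from these extremes the spread was similar where the medians matched: from the 5th to the 95th percentile, calls at place 4 ran from 20 to 42 in BDF1-CAST fibroblast sample 1 and from 20 to 40 in X1 fibroblast sample 4. How reads that match several copies were placed is not given in the sources used here. Whether the calls listed at a copy all come from that copy was not tested, so the class and place means are firmer than any single copy.

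Chromosomes showed the same picture. Over the 20 chromosomes, full copies averaged between 87.4% and 88.3% in fibroblasts and between 86.6% and 87.5% in NT embryos. The BDF1-CAST mean was lower in NT embryos on all 20 and the X1 mean higher on all 20. On X, full copies read 87.9% ± 1.36 in fibroblasts and 87.4% ± 3.08 in NT embryos (SD, n = 4 each), against 87.8% ± 1.13 and 87.1% ± 3.43 on autosomes. Runs of the 2 directions averaged 87.9% ± 1.19 and 87.7% ± 1.11 in fibroblasts, a difference within the SD.

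For the variants, the lacking CpG was checked in all lists at any depth. At place 3 it was listed in none of 386 copies, at place 4 in 1 of 241 and at place 2 in 9 of 128. Without a mm9 genome the base change behind a missing CpG was not analysed here.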

How the data were processed

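Reduced representation bisulfite sequencing was done on 9 libraries from 8 samples. The authors deposited, per library, counts of calls and of methylated calls at each CpG on mm9 (the build named in the submitters' processing notes). Which aligner and caller were used, and what was done with reads matching more than 1 place, is not given in the sources used here. CpG density is a score per 100 bp tile in the authors' deposited table; the 18 per-sample columns of other tables were not used. The fibroblast library BDF1-CAST 1 and its repeat 1a were summed.

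CpGs with at least 5 calls in at least 5 of the 9 files (1342457 CpGs) defined neighbours. Runs of 5 neighbours spanning at most 100 bp with at least 10 calls in each sample were tested, 446468 in all. The spacing, the variants and the comparisons were chosen with earlier results of these data known, so levels and changes of the copies are descriptions. Each copy, or CpG with at least 5 calls in each sample, was weighted equally. Methylated and unmethylated calls per run entered a quasi-binomial logistic model with stage and strain, its dispersion moderated with limma 3.58.1 (R 4.3.3) and kept at 1 or above, with Benjamini-Hochberg adjustment over all runs. A call needed an adjusted p under 0.05 and at least 20 points. The model and the spacing search were tested on simulated data, but the outcome is not given here and no result rests on it. Copies named with coordinates are those with the largest fall and rise of each class among copies with at least 20 calls in every sample, outside chromosome 18, whose copies are counted but not named here; the unmethylated copy was added for its value.

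Alternatives changed the call minimum, the file minimum, the library 1a, the weighting, the chromosomes, the covariate, the test and each sample in turn. Other software was numpy 2.4.6, pandas 2.3.3 and matplotlib 3.10.9, under Python 3.11.15. Median depth per copy was 69 to 146 calls per sample. Places 1 and 2 had medians of 8 to 14 calls, which limits single copies there.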

Additional observations from a re-analysis of the deposited data

Results flagged for a closer look

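For the classes of copies, both BDF1-CAST NT samples lay lower and both X1 NT samples higher than the fibroblast mean of their strain, and so did those of some places. The difference between strains was not tested for these means. The X1 change minus the BDF1-CAST change was 4.18 points for full copies and 4.12 for the variants together. It was 4.24 for copies lacking place 2, 4.23 for those lacking place 3, 3.89 for those lacking place 4 and 4.17 for all copies. Of the places, those where the strains went opposite ways in this sense had 3.40 at the CpG 7 bp before place 1, 4.26 at place 2, 4.12 at place 3 and 4.13 at place 5. The other places did not: X1 also changed by -0.576 points at place 4 and -0.797 at place 6 (BDF1-CAST -4.99 and -4.55), and at place 1 the changes were -0.204 in BDF1-CAST, with 1 NT sample above the fibroblast mean, and 3.08 in X1. These values share samples and copies.

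Of 64 groups of 4 samples examined, 2 held a sample far from the other 3, where chance gives about 1 in 20 groups. Place 3 minus place 1 was 5.52 points in BDF1-CAST NT sample 1, and the nearest other NT sample had 2.82. Place 4 minus place 3 was 3.14 points in BDF1-CAST fibroblast sample 2, against 2.10 in the nearest.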

How the results depend on the processing

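Of the main results recomputed under alternatives, 289 values moved by less than the spread between samples and 41 by more. For counts the limit was 1.5 times. A change of sign within that spread is among the 289. The change of full copies, for example, was -0.712 points with all samples and +0.352 without BDF1-CAST NT sample 2. Among the copies, 0 were called between stages, between strains or for their product in every alternative run. These counts are among the 289, as are values that a setting could not move. The fibroblast difference between full copies and variants, for example, does not depend on an NT sample left out. The fit with the replicate number as a block called 0 runs and 0 copies between stages (smallest adjusted p of a copy 0.420), but the numbers share no stated origin: deviations of same-numbered samples from the strain and stage means correlated at -0.0467 and 0.0364 (0.0884 to 0.303 from stage means alone), and 1 of 4 fibroblast samples correlated best with its own number.

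Over all runs, stage calls numbered 1403 with at least 20 calls, 87 with 5 calls required in all 9 files, 1354 without 1a and 0 to 1581 with 1 sample left out. Strain calls numbered 56 with all 9 files, 400 with limma, 15 without 1a and 0 with any sample left out.

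Full minus variants in fibroblasts was 1.16 with a CpG 7 bp before place 1, 1.78 with all 9 files, 3.77 with calls summed, 1.93 within arrays, 3.42 at shared places and 1.75 without the copies lacking place 3. In NT embryos it was 1.14, 1.77, 3.29, 1.74, 2.95 and 1.501 in the same order, and its change was -0.0207 and -0.00872 under the first pair of settings. Place 4 in full copies minus those lacking place 3 was 2.66, 6.04 and 14.9 under the first 3 settings and 16.4 to 17.7 with 1 sample left out. Requiring all 9 files leaves 970 full copies and 392 variants. The settings on shared places, arrays, the CpG 7 bp before place 1 and the copies lacking place 3 were added after seeing the data.

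With 1 sample left out, the change of full copies ranged from -1.77 to 0.352 points and that of variants from -1.22 to 0.747. The ranges were 0.125 to 2.77 at place 1, -1.56 to 1.12 at place 2, -2.60 to -0.426 at place 3, -3.79 to -1.74 at place 4, -1.14 to 0.939 at place 5 and -3.26 to -1.999 at place 6. Place 5 minus place 4 changed by 2.34 to 2.92 points. Depth limits single copies most at places 1 and 2.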
